A study of Mus musculus with 18 samples.

Results

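Pparg, the gene of the nuclear receptor PPARG, was followed through 6 groups of primary preadipocytes (precursors of fat cells, taken from the epididymal fat of mice) as 1 gene of 17001 gene symbols in the table of undifferentiated cells and of 15482 in the table of differentiated cells. It was chosen by its symbol, and its transcripts made up 4 of 32709 and 4 of 29641 transcript rows. All 4 rows passed the filter on low counts in both tables, but 1 of them, NM_011146, passed in undifferentiated cells only through the group where it was high. Poly(A) RNA had been sequenced in 18 libraries, 3 per group, from wild-type (WT) mice.

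A first group on control diet received the cytokine TGF-b1 together with SB431542, which blocks the kinase of the TGF-b type I receptor and its close relatives. A second was a mock-treated group from mice on a high-fat diet (HFD mock). Another, on control diet, received TGF-b1 alone, and the last of them was the mock-treated control-diet group (CD mock). The other two, Itga5-High and Itga5-Low, were preadipocytes sorted with an antibody to integrin alpha 5 (CD49e) and then taken through adipogenic differentiation; no diet is given for them. Doses, times, the ages and sex of the mice, the composition of the differentiation medium and whether replicates were separate animals or cultures are not stated in the labels, so p-values measure only how far these libraries spread, and that spread may be technical.

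PPARG binds DNA as a heterodimer with a retinoid X receptor and is required for the formation of fat cells. It works in a loop with the transcription factor CEBPA, each raising the other's expression, and it switches on genes of lipid uptake and storage. The gene makes proteins from separate promoters: PPARG1, found in many cell types, and PPARG2, which carries extra amino acids at its N terminus and is made mainly in fat cells. TGF-b signalling is known as an inhibitor of adipogenesis.

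The 4 transcript rows lay on the plus strand of chromosome 6 (mm10) and shared their end at 115490402. NM_001127330 began at 115360951, NM_001308352 at 115361144 and NM_001308354 at 115362349. NM_011146 began at 115422066, 61.1 kb downstream of the first start. In the GENCODE annotation the coding sequence of NM_011146 had 505 codons and began in its own first exon, whereas that of the other rows had 475 codons and began in exon 3 of their models. The difference of 30 codons marks NM_011146 as the PPARG2 row, and the other 3 rows as PPARG1 rows.

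**Figure D1:**
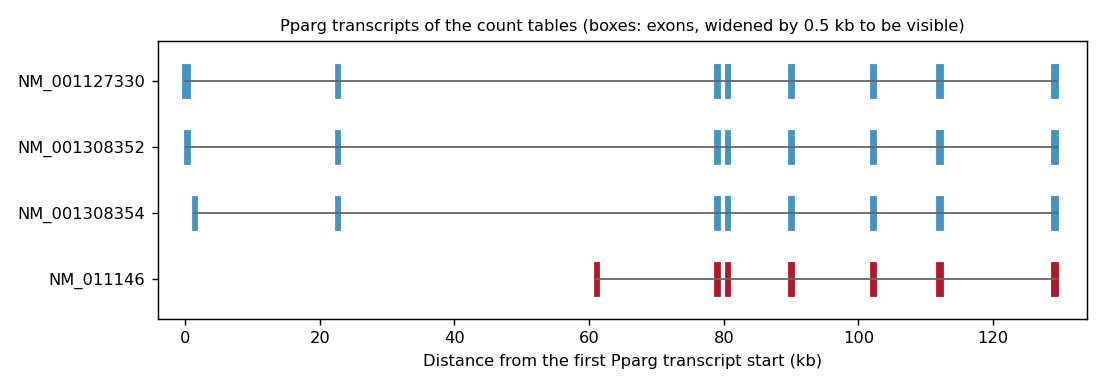
Exons of the 4 Pparg transcript rows by distance in kb from the first transcript start, with exons as boxes and the transcribed span as a line. Exons are GENCODE models cut at the start each row has in the tables, NM_001127330 and NM_001308352 share 1 model, and NM_011146 (red) starts 61.1 kb downstream of the first row and shares its later exons with the other 3. The shared model does not match NM_001308352 in full: the 2 lengths, 2127 and 1797 bases, differ by more than the starts (0.193 kb).

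The bases upstream of 2 of the starts are shown because the rows differ in where they begin. They come from RefSeq (GRCm38.p6), 250 bases up to the base before each start, plus strand, at chr6:115362099-115362348 for NM_001308354 and chr6:115421816-115422065 for NM_011146. Capitals mark 3 motifs searched on both strands. These were TATAA, the core bound by the general factor TBP, then TTGCNNAA, a core bound by C/EBP factors, and AGGTCA, the core of nuclear receptor sites. These motifs were picked after the stretches had been read.
NM_001308354 upstream: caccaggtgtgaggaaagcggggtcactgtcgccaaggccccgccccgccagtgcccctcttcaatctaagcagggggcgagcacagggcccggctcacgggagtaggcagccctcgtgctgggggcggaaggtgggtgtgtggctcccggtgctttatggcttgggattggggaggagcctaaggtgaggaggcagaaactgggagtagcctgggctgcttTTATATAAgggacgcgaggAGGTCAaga
NM_011146 upstream: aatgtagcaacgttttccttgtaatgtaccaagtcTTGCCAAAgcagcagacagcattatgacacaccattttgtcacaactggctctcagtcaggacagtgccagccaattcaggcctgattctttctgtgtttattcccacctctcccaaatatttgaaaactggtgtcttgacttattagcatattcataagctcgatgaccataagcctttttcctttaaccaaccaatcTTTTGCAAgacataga
In the NM_001308354 stretch, TATAA occurred on both strands in overlapping positions, and AGGTCA began 9 bases before the start. The first exon of the matching GENCODE model began at 115362292, inside the printed stretch. The NM_011146 stretch held TTGCNNAA at 215 and 16 bases before the start and neither of the other motifs. Windows of 300 bases that also take in the first 50 transcribed bases had 62.7% G and C at NM_001308354 and 40.3% at NM_011146, with 13 and 2 CpG dinucleotides. The window that holds the starts of NM_001127330 and NM_001308352 had 80.3% G and C, 44 CpG dinucleotides and 1 AGGTCA. Over 32817 such windows of the RefSeq table the median was 52.7% G and C, and 24.9% held TATAA, 10.8% TTGCNNAA and 16.3% AGGTCA. These matches describe letters in the windows and say nothing of what binds there.

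Libraries held 11154450 to 17288614 counts. Levels are given in CPM, counts relative to the library size after TMM scaling, and genes and rows with an adjusted p under 0.05 are named as called. Summed CPM of 7 preadipocyte markers was 1432 to 1455 with TGF-b1 and 2281 to 3767 in the other groups. With TGF-b1 against CD mock, 6 of the 7 were called lower and 1, Pdgfrb, higher (means of 1001 and 849.7 CPM). Of 5 mature adipocyte markers, Lep had no row in either count table and could not be analysed. The other 4 summed to 825.6 to 1111 CPM in the differentiated groups.

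Pparg was lowest with TGF-b1 and highest with TGF-b1 and SB431542. Its transcripts summed to 91.4, 91.1 and 86.8 CPM with TGF-b1 and SB431542 (89.8 ± 2.56, SD, n = 3) and to 31.1, 29.2 and 31.0 CPM in HFD mock (30.4 ± 1.09). They summed to 13.99, 13.7 and 12.3 CPM with TGF-b1 (13.4 ± 0.889) and to 27.1, 25.8 and 25.02 CPM in CD mock (25.97 ± 1.03). No library of one of these groups overlapped with another group. The order was therefore TGF-b1 with SB431542, HFD mock, CD mock and TGF-b1, and HFD mock differed from CD mock, and TGF-b1 from CD mock, in the test. TGF-b1 with SB431542 was not tested against HFD mock. After differentiation Pparg stood at 45.9, 48.3 and 46.2 CPM in Itga5-High (46.8 ± 1.30) and 43.5, 46.8 and 46.7 CPM in Itga5-Low (45.7 ± 1.86), and these libraries overlapped. The differentiated table was scaled on its own, so its values stand beside the others without a test.

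**Figure D2:**
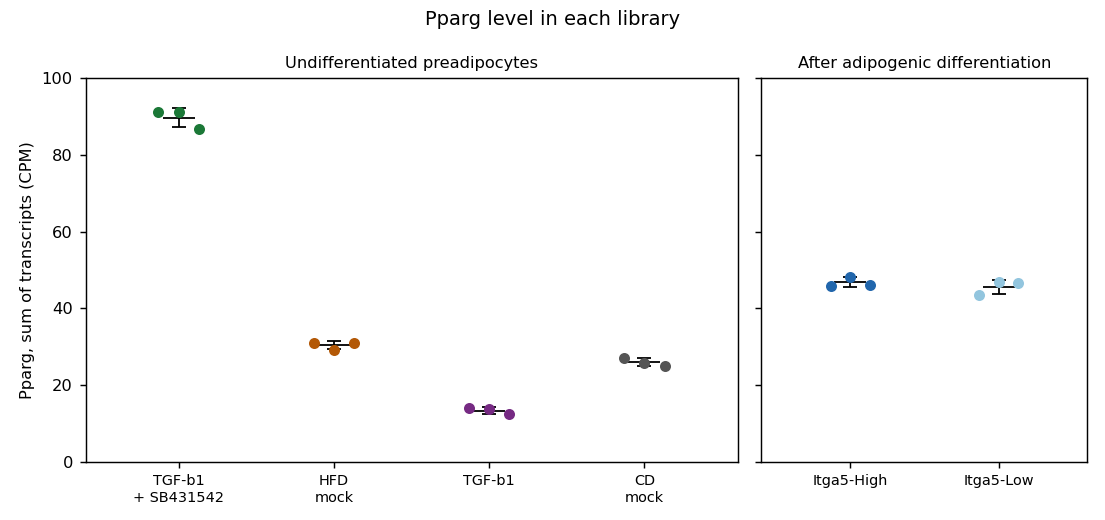
Pparg, summed over its 4 transcript rows, in CPM on the vertical axis, for each library of the 6 groups, with mean and SD (n = 3). Libraries with TGF-b1 and SB431542 sit between 86.8 and 91.4 CPM and libraries with TGF-b1 alone between 12.3 and 13.99 CPM, while Itga5-High and Itga5-Low overlap.

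Pparg was 1.96-fold lower with TGF-b1 than in CD mock, a log2 change of -0.97 (SE 0.0778, adjusted p = 1.445e-15 by edgeR's quasi-likelihood test with Benjamini-Hochberg adjustment over 14078 genes). Of all genes tested in that comparison, 67.6% were called, with 33.4% of all genes called higher and 34.2% lower. With TGF-b1 and SB431542 it was 6.76-fold higher than with TGF-b1 alone, a log2 change of 2.76 (SE 0.0582, edgeR adjusted p = 3.451e-37), where 79.7% of genes were called, 41.4% higher and 38.3% lower. Cells with both agents also stood above CD mock, which had received neither, by a log2 change of 1.79 (SE 0.0502, edgeR adjusted p = 8.062e-32), or 3.46-fold, where 61% of genes were called, 30.6% higher and 30.4% lower. There was no group with SB431542 alone, so its effect without added TGF-b1 cannot be told apart from its effect on TGF-b1. These 3 comparisons share their groups with each other and are not independent. Summed markers of other cell types also differed between these groups. The sum of 5 mesothelial markers was 1520 to 1536 CPM with TGF-b1 and SB431542, 417.3 to 421.4 CPM with TGF-b1 and 1625 to 1660 CPM in CD mock. That of 5 endothelial markers was 638.7 to 649.9 CPM with TGF-b1 and SB431542, 158.3 to 162.2 CPM with TGF-b1 and 300.4 to 318.5 CPM in CD mock. That of 7 macrophage markers was 391.8 to 396.4 CPM with TGF-b1 and SB431542, 114.3 to 118.2 CPM with TGF-b1 and 164.4 to 169.3 CPM in CD mock. Not every member followed its sum. Kdr (endothelial) averaged 103 CPM with TGF-b1, 66.0 in CD mock and 56.2 with both agents. Msln (mesothelial) averaged 120 CPM with TGF-b1, 121 in CD mock and 61.2 with both agents. The other 4 of either list were called lower with TGF-b1 than in CD mock and higher with SB431542 added. Of the 7 macrophage markers, 3 were not called for TGF-b1 against CD mock. None of these markers was at 0 in a whole group, and their part in the Pparg differences was not tested.

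Pparg was slightly higher in HFD mock than in CD mock, by a log2 change of 0.23 (SE 0.0632, edgeR adjusted p = 9.414e-04), where 53.7% of genes were called, 27.1% higher and 26.6% lower. With libraries scaled by total counts the log2 change was 0.15 (edgeR adjusted p = 0.03104). The summed CPM of 7 macrophage markers was 773.8 to 786 in HFD mock and 164.4 to 169.3 in CD mock. The mesothelial sum was 416.3 to 422.5 CPM in HFD mock and 1625 to 1660 CPM in CD mock, and the endothelial sum was 95.11 to 102.4 CPM in HFD mock and 300.4 to 318.5 CPM in CD mock. The part of these markers in the Pparg difference was not tested. In these bulk libraries fewer or more cells that express Pparg and a change per cell cannot be told apart. HFD mock stood above TGF-b1 by a log2 change of 1.20 (SE 0.0737, edgeR adjusted p = 2.007e-19), where 64.5% of genes were called, 31.7% higher and 32.8% lower. For Itga5-High against Itga5-Low, Pparg was not called: the log2 change was 0.03 (SE 0.0481, edgeR adjusted p = 0.5973), where 53.5% of 13468 genes were called, 27% higher and 26.5% lower. It was -0.01 with total counts and -0.00287 without Itga5-Low replicate 1, neither of them called.

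The row estimates were far less steady than their sum. Relative to counting noise, the replicate spread of the Pparg sum (chi-square per degree of freedom) was 0.685 in the undifferentiated and 0.855 in the differentiated table, against 2.68 to 17.5 and 8.44 to 10.3 for single rows. With the 3 PPARG1 rows added together it was 0.913 and 4.24. In HFD mock, for example, NM_001308352 had 1.69, 10.6 and 6.53 CPM and NM_001308354 had 18.1, 7.52 and 13.6 CPM, so that 1 row was high where the other was low. In the GENCODE models the PPARG1 rows share their later exons, and the starts of NM_001127330 and NM_001308352 lie in 1 first exon. NM_011146 shares most of these later exons too, and only its first exon, of 127 bases, is its own. How the authors divided reads between rows is not stated in the labels.

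NM_001308354 took the largest mean share of Pparg counts in each of the 6 groups, though not in every library. In Itga5-Low its share, 38.0 ± 2.99%, was close to the 36.7 ± 4.91% of NM_011146, which was larger in replicate 1 (40.5 against 34.6%). In HFD mock replicate 2 it held 25.8%, below NM_001127330 (37.3%) and NM_001308352 (36.3%). NM_001308354 averaged 53.9 ± 1.22 CPM with TGF-b1 and SB431542, 13.1 ± 5.29 CPM in HFD mock, 6.92 ± 0.864 CPM with TGF-b1 and 15.7 ± 3.27 CPM in CD mock (SD, n = 3 each). Per transcript length, its share of Pparg was 61.6 ± 1.07% with TGF-b1 and SB431542, 45.2 ± 17.1% in HFD mock, 54.5 ± 6.77% with TGF-b1 and 62.9 ± 10.3% in CD mock. NM_001127330 and NM_001308352 held smaller mean shares per length, 13.5 to 30.7% and 9.52 to 22.01% across the undifferentiated groups.

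**Figure D3:**
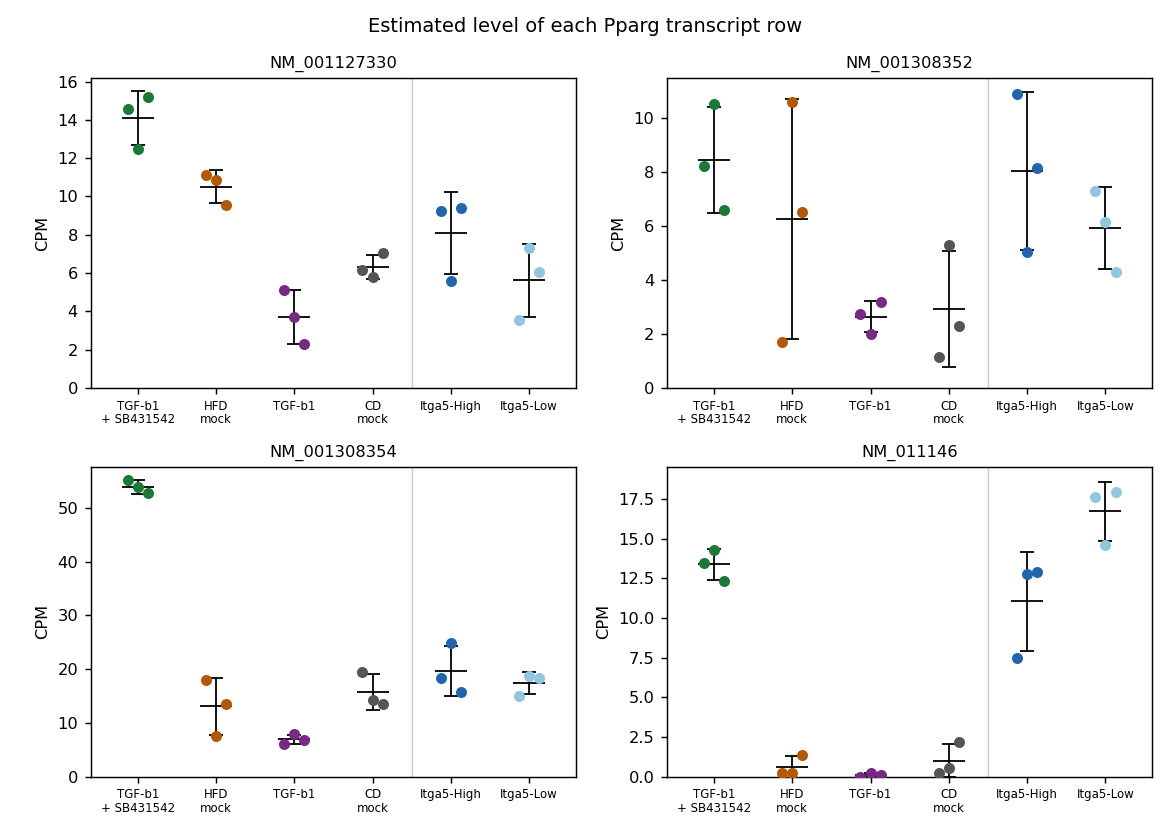
Estimated CPM of each of the 4 Pparg transcript rows in every library, with mean and SD (n = 3); the vertical scales differ between panels and the grey line separates the 2 tables. NM_001308354 reaches 52.7 to 55.1 CPM with TGF-b1 and SB431542, and NM_011146 stays under 2.19 CPM in HFD mock, TGF-b1 and CD mock.

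The PPARG2 row NM_011146 was near 0 in the undifferentiated cells except with SB431542. It had 13.5, 14.3 and 12.4 CPM with TGF-b1 and SB431542, and 0.221, 0.198 and 1.38 CPM in HFD mock. It had 0.00188, 0.200 and 0.0945 CPM with TGF-b1 and 0.250, 0.539 and 2.18 CPM in CD mock. The 3 libraries with SB431542 lay above all others of that table, and CD mock replicate 3 and HFD mock replicate 3 were high within their groups. The row passed the filter on low counts through those 3 libraries, since too few of the others held enough counts. Its tests in undifferentiated cells, given below, therefore exist only because of the group where it was high. Its share of Pparg counts was 14.9 ± 0.752% with TGF-b1 and SB431542, 1.94 ± 2.16% in HFD mock, 0.746 ± 0.723% with TGF-b1 and 3.91 ± 4.21% in CD mock (SD, n = 3 each). The sum of the 4 mature adipocyte markers was 236.5 to 242.8 CPM with TGF-b1 and SB431542, 0.711 to 2.05 CPM in HFD mock, 0 to 0.877 CPM with TGF-b1 and 19.9 to 20.4 CPM in CD mock, and its part in this row was not tested.

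**Figure D4:**
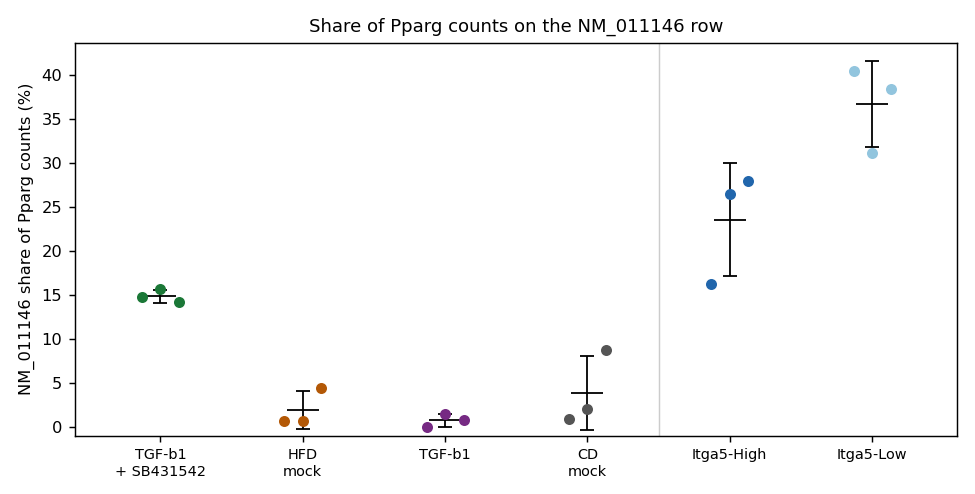
Share of Pparg counts on the NM_011146 (PPARG2) row, in percent, in every library, with mean and SD (n = 3); the grey line separates the tables. The share is 14.2 to 15.7% with TGF-b1 and SB431542, 0.0134 to 8.72% in the other undifferentiated libraries, 16.3 to 27.98% in Itga5-High libraries, and 31.2 to 40.5% in those of Itga5-Low.

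Tested on its own, the NM_011146 row rose with TGF-b1 and SB431542 against TGF-b1, by a log2 change of 7.24 (SE 1.03, edgeR adjusted p = 1.111e-04 over 26337 rows, 44.5% of them called). The TGF-b1 libraries held only 3 rounded counts of it together, against 543 with SB431542, a scaled ratio of 169 with an exact 95% interval of 57.6 to 823 that covers counting error only. All 3 PPARG1 rows were called higher in this comparison too, with log2 changes of 1.68 to 2.97. With TGF-b1 and SB431542 the row was also higher than in CD mock, by a log2 change of 3.76 (SE 0.766, edgeR adjusted p = 0.003437), where 24% of rows were called. With TGF-b1 it was lower than in CD mock, by a log2 change of -3.48 (SE 1.12, edgeR adjusted p = 0.03523), where 30.9% of rows were called, and the groups held 3 and 36 rounded counts. Most of the CD mock counts came from replicate 3, which held 25.5, against 2.85 and 7.61 in replicates 1 and 2. This call of a single row was not rerun with libraries left out. NM_001308354 and NM_001127330 fell with TGF-b1 as well, with log2 changes of -1.19 and -0.78, while NM_001308352 was not called (-0.16).

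Whether NM_011146 moved more than the rest of the gene was asked with edgeR's test of transcript usage, which sets the change of a row against that of its gene. For TGF-b1 with SB431542 against TGF-b1, usage of Pparg transcripts differed at the gene level (edgeR adjusted p = 0.002957), where 10% of 5956 genes were called. NM_011146 rose by 4.48 on the log2 scale more than the gene as a whole (edgeR adjusted p = 0.005800), where 1.99% of rows were called; 25 of the 366 called rows had a larger relative rise. The call did not hold throughout: limma's test gave an adjusted p of 0.09709, and edgeR gave 0.07273 without TGF-b1 replicate 1 and 0.05647 without TGF-b1 replicate 3. Usage was not called in the other comparisons. In simulated counts this test recovered only 30.8% (undifferentiated) and 31.5% (differentiated) of rows changed by 1 on the log2 scale. Measured against their gene, the raised rows changed by a median of only 0.485 and 0.477. The simulation also used a fixed spread and changed only rows of higher counts. It therefore does not say how often a usage change of Pparg would be found. An uncalled result does not show that usage was equal. The gene-level edgeR adjusted p was 0.3202 for TGF-b1 against CD mock (4.99% of genes and 0.728% of rows called) and 0.2236 for TGF-b1 with SB431542 against CD mock (3.11% and 0.549%). It was 0.2510 for HFD mock against CD mock (5.91% and 0.81%) and 0.6633 for HFD mock against TGF-b1 (6.58% and 0.853%). In HFD mock against CD mock, NM_001127330 was the 1 row called on its own, higher by 0.73 on the log2 scale (SE 0.235, edgeR adjusted p = 0.04887), where 20.8% of rows were called. In HFD mock against TGF-b1, NM_001127330 and NM_001308354 were called higher (1.51 and 0.93), where 29% of rows were called.

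After differentiation NM_011146 had 7.47, 12.8 and 12.9 CPM in Itga5-High and 17.6, 14.6 and 17.96 CPM in Itga5-Low. Its share of Pparg counts was 16.3, 26.5 and 27.98% in Itga5-High (23.6 ± 6.38, SD, n = 3) and 40.5, 31.2 and 38.5% in Itga5-Low (36.7 ± 4.91), with no overlap between the groups. The difference did not pass the tests. The row's log2 change was -0.60 (SE 0.225, edgeR adjusted p = 0.1264, 16.4% of 24821 rows called), and its relative log2 change was -0.64 (edgeR adjusted p = 0.5079, 0.403% of rows called). The gene-level usage test gave an edgeR adjusted p of 0.2698, where 3.73% of 5581 genes were called. Equal shares are not shown by an uncalled usage test. The sum of the 4 mature adipocyte markers was 825.6 to 838.5 CPM in Itga5-High, against 1103 to 1111 CPM for Itga5-Low, and their part in this difference was not tested.

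Among 20 listed partners, coactivators and corepressors of PPARG, Rxra, its main heterodimer partner in fat cells, had 128, 137 and 136 CPM with TGF-b1 and SB431542, 57.7, 54.8 and 56.4 CPM with TGF-b1 and 102, 96.0 and 100 CPM in CD mock. These 3 groups did not overlap. Ppargc1a, the coactivator of mitochondrial and thermogenic genes, had 3.97, 4.56 and 5.30 CPM with TGF-b1 and SB431542, 0, 0.0887 and 0.0674 CPM with TGF-b1 and 1.67, 1.42 and 1.97 CPM in CD mock. Of 19 members tested, 6 rose and 9 fell with TGF-b1 against CD mock (4 and 14 with total counts), with a median log2 change of -0.15 against -0.02 over all genes; 78.9% of members and 67.6% of all genes were called. With SB431542 added to TGF-b1, 13 rose and 6 fell (13 and 3 with total counts), with a median of 0.28 against 0.04, and 100% of members were called against 79.7% of all genes. In Itga5-High against Itga5-Low, 16 of 20 fell and 0 rose in edgeR's test (median -0.27 against -0.003 over all genes), Rxra (-0.24) and Ppargc1a (-0.99) among them; 80% of members and 53.5% of all genes were called. With DESeq2, 14 fell and 0 rose. At an unadjusted p under 0.05 in edgeR's test, 1 member, Hdac3, was higher (0.09), and it is named because it was that exception.

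Factors that act upstream of Pparg or beside it included Cebpa, its partner in the adipogenic loop. Cebpa had 265, 269 and 268 CPM with TGF-b1 and SB431542, 175, 185 and 180 CPM in HFD mock, 49.3, 46.6 and 47.6 CPM with TGF-b1 and 132, 139 and 129 CPM in CD mock, so it stood in the same order as Pparg with no overlap. Unlike Pparg it was called in the differentiated cells, at 275, 272 and 265 CPM in Itga5-High and 371, 361 and 376 CPM in Itga5-Low (log2 change -0.45). Cebpb and Cebpd, which act early in adipogenesis, fell with TGF-b1 against CD mock (-0.86 and -0.72) and rose with SB431542 added (0.63 and 1.19). Klf15, an activator of later differentiation, had 23.6, 23.5 and 24.9 CPM with TGF-b1 and SB431542 and 1.45, 1.24 and 0.809 CPM with TGF-b1. Zfp423, a factor of preadipocyte commitment, was not called for TGF-b1 against CD mock (0.19) and rose with SB431542 added (0.65). Of the 16 members, 3 rose and 12 fell with TGF-b1 (median log2 change -0.50; 93.8% called against 67.6% of all genes), and 13 rose and 3 fell with SB431542 added (median 0.70; 13 and 1 with total counts; 100% called against 79.7%). For HFD mock against CD mock, 5 rose and 4 fell, but 5 and 10 with total counts; the 56.2% called lay near the 53.7% of all genes.

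The 14 listed inhibitors of adipogenesis did not move one way. With TGF-b1, 6 rose and 6 fell (3 and 7 with total counts; median log2 change -0.01), and 85.7% were called against 67.6% of all genes. Gata3, which represses Pparg in preadipocytes, had 1.80, 1.91 and 1.15 CPM with TGF-b1 and SB431542, 7.33, 7.89 and 6.34 CPM with TGF-b1 and 2.29, 2.90 and 2.40 CPM in CD mock. It rose with TGF-b1 (1.48) and fell with SB431542 added (-2.12), and it was higher in Itga5-High than in Itga5-Low (1.27). Gata2, of the same family, was called lower with TGF-b1 against CD mock (-0.16) by edgeR but not by DESeq2. That call was also lost without CD mock replicate 1 or 2 or TGF-b1 replicate 2 (edgeR adjusted p of 0.05586, 0.1527 and 0.3321). With SB431542 added to TGF-b1 it was not called (0.01), but was called higher with total counts (0.26). Zfp521, an antagonist of adipogenic commitment, fell with SB431542 added to TGF-b1 (-0.48) and was lower in Itga5-High than in Itga5-Low (-0.96). Nr2f2 rose with SB431542 added (0.21). Its difference between TGF-b1 and CD mock (0.18) and that of Zfp521 (0.17) were called, but not with total counts. The Zfp521 call was also lost without CD mock replicate 3 or TGF-b1 replicate 1 (edgeR adjusted p of 0.05395 and 0.07864). With SB431542 added, 6 of the list rose and 5 fell, and the 78.6% called lay near the 79.7% of all genes.

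The PPARG target list took 32 genes, of which 28 were tested in undifferentiated cells; Ucp1, Pck1, Plin5 and Cidea did not pass the filter there. With TGF-b1, 20 fell and 7 rose (21 and 4 with total counts), with a median log2 change of -0.78 against -0.02 over all genes; 96.4% of those tested and 67.6% of all genes were called. With SB431542 added, 24 rose and 3 fell (median 2.16 against 0.04; 96.4% called against 79.7% of all genes), and against CD mock 23 rose and 5 fell (median 1.25 against 0.01; 100% called against 61%). Fabp4, a fatty acid carrier, had 647, 645 and 637 CPM with TGF-b1 and SB431542, 93.4, 93.0 and 97.9 CPM in HFD mock, 46.7, 44.3 and 44.2 CPM with TGF-b1 and 155, 155 and 159 CPM in CD mock. Lpl, the lipase of triglyceride uptake, and Cd36, a fatty acid transporter, fell with TGF-b1 (-2.81 and -2.10) and rose with SB431542 added (4.14 and 3.65). Plin1, which coats lipid droplets, had 66.6, 66.9 and 64.0 CPM with TGF-b1 and SB431542, 0.0853, 0 and 0.337 CPM with TGF-b1 and 8.96, 8.63 and 10.7 CPM in CD mock. Adipoq, the adipokine adiponectin, had 68.1, 71.1 and 71.9 CPM with TGF-b1 and SB431542, 0.0853, 0 and 0.270 CPM with TGF-b1 and 4.75, 3.47 and 3.77 CPM in CD mock. Cidec, another lipid droplet gene, reached only 1.01 to 1.62 CPM with TGF-b1 and SB431542. It was lower in all other undifferentiated libraries, so it passed the filter there through that group. Angptl4, a secreted inhibitor of LPL, rose with TGF-b1 (0.37) and more with SB431542 added (1.30).

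**Figure D5:**
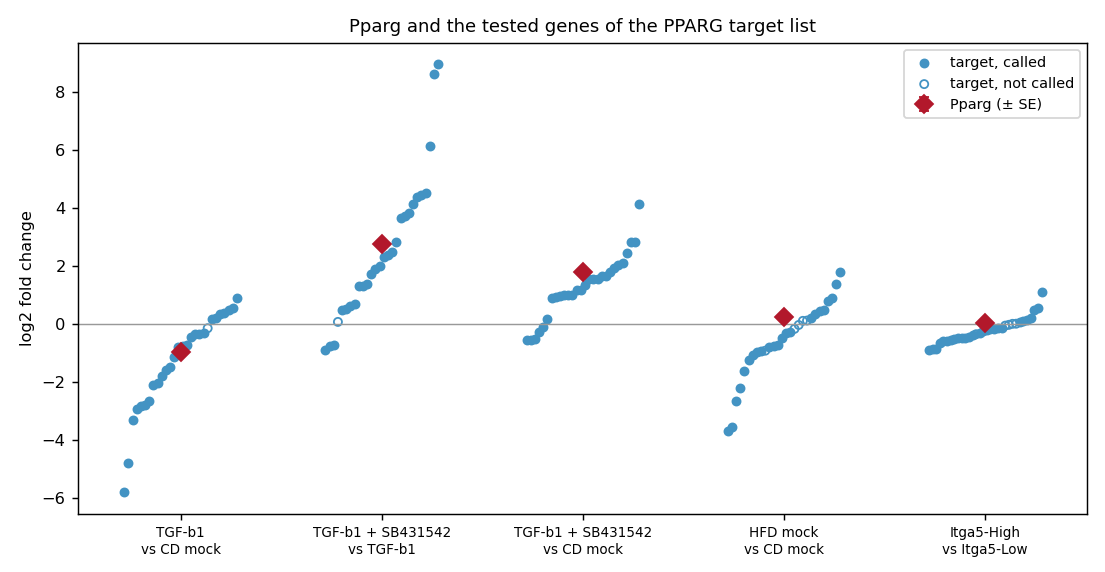
Log2 fold change of Pparg (red, with SE) and of each tested gene of the PPARG target list (28 genes, 32 for Itga5-High against Itga5-Low; filled where called) in 5 comparisons, sorted within each. For HFD mock against CD mock Pparg stands at 0.23 while the targets' median is -0.42. The first 2 comparisons lie on opposite sides of 0 for most targets. They share the TGF-b1 libraries, once as the tested group and once as the reference, and so are not independent.

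In HFD mock against CD mock, Pparg and its listed targets did not move together: 15 targets fell and 8 rose (16 and 7 with total counts), with a median log2 change of -0.42 against -0.01 over all genes, and 82.1% were called against 53.7% of all genes. Adipoq had 0.213, 0.163 and 0.494 CPM in HFD mock and 4.75, 3.47 and 3.77 CPM in CD mock. Cd36, which macrophages also express, had 262, 273 and 264 CPM in HFD mock and 139, 148 and 140 CPM in CD mock. The part of macrophages in the values of Cd36 or of other targets was not tested. In Itga5-High against Itga5-Low all 32 targets were tested, and 19 fell and 7 rose (20 and 5 with total counts; median -0.22 against -0.003; 81.2% called against 53.5% of all genes). Adipoq had 257, 253 and 261 CPM in Itga5-High and 368, 372 and 366 CPM in Itga5-Low. Cidec fell as well (-0.56), whereas Angptl4 was higher in Itga5-High (1.11), and Cidea was not called (-0.35). Fabp4 had 3112, 3112 and 3131 CPM in Itga5-High and 3134, 3108 and 3090 CPM in Itga5-Low; it was not called, but was called lower with total counts (-0.04).

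The related receptors moved unequally. Ppara, the PPAR of fatty acid oxidation in liver, had 3.75, 3.31 and 3.996 CPM with TGF-b1 and SB431542, 0.597, 0.443 and 0.742 CPM with TGF-b1 and 2.20, 2.34 and 1.97 CPM in CD mock, and all 3 comparisons were called. It was lower in Itga5-High than in Itga5-Low (-1.05). Ppard, which is widely expressed, changed by -0.21 with TGF-b1 against CD mock and by 0.15 with SB431542 added, both called.

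The 5 genes whose pattern over the 4 undifferentiated groups (12 libraries) lay nearest to that of Pparg, by Euclidean distance between group means of log2 CPM after each gene's mean was subtracted, were Agmo (0.17), Parp14 (0.203), Ccl2 (0.205), Etv1 (0.214) and Rab3b (0.267), out of 11766 candidates with at least 5 CPM in their highest group. Parp14 had 102, 97.5 and 100 CPM with TGF-b1 and SB431542, 29.6, 29.2 and 26.5 CPM in HFD mock, 12.7, 14.4 and 13.01 CPM with TGF-b1 and 29.9, 28.4 and 26.6 CPM in CD mock. Ccl2, a chemokine that attracts monocytes, was the 1 gene of the 5 also called for HFD mock against CD mock (0.37). The differentiated cells were not used in this choice, and there the genes parted: Agmo (-1.46) and Parp14 (-0.29) were lower and Rab3b (0.53) was higher in Itga5-High, and Ccl2 and Etv1 were not called.

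Of other genes within 250 kb of Pparg, 5 are given here. Tmem40 passed the filter in neither table, and Timp4, 109 kb away, in the differentiated one alone. Syn2, a synapsin gene 78.3 kb upstream, had 0.938, 1.25 and 1.23 CPM with TGF-b1 and SB431542, 1.54, 1.69 and 0.877 CPM with TGF-b1 and 0.351, 0.354 and 0.428 CPM in CD mock. It was thus called higher with TGF-b1 than in CD mock (1.79), where Pparg fell. Mkrn2, which encodes a makorin ring finger protein, fell with SB431542 added (-0.39; -0.13 and not called with total counts). D830050J10Rik was not called in the 5 comparisons, but was called higher for HFD mock against CD mock without CD mock replicate 1 or 3 or HFD mock replicate 3 (0.60 to 0.64), and for Itga5-High without its replicate 1 (0.56). In Itga5-High against Itga5-Low, Timp4 was higher (0.89) and Syn2 was lower (-0.56), but Timp4 was not called with DESeq2. That call was also lost without Itga5-High replicate 1 or 3 or Itga5-Low replicate 1 or 2 (0.67 to 0.90).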

How the data were processed

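The authors sequenced poly(A) RNA of mouse primary preadipocytes in 18 libraries and deposited estimated counts (expected counts) per RefSeq transcript; the submitters' processing notes name fastp, STAR, featureCounts and mm10. The sources used here do not give tool versions, strandedness or the way reads were divided between rows; how reads of shared exons were divided sets the row values.

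Rows were summed per symbol and rounded in pandas 2.3.3 (numpy 2.4.6, Python 3.11.15). In R 4.3.3, edgeR 4.0.16 fitted the 12 undifferentiated and the 6 differentiated libraries separately, with filterByExpr (14078 and 13468 genes kept), TMM, the quasi-likelihood test and Benjamini-Hochberg adjustment over all genes or rows tested. Standard errors of gene changes come from a second fit with a dispersion of at least 1e-04, and those of rows from the fit that gave their p. P-values of very abundant genes are not printed, since edgeR is inexact there. Transcript usage was tested on rounded rows with edgeR's diffSpliceDGE. Row CPM are unrounded counts over the gene-level scaled library size. Scripts were tested on simulated data.

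Depth limits the precision of single rows, and intervals cover counting error only. Alternatives were DESeq2 1.42.0 (size factors, Wald test), total counts, no filter, the replicate number as a block, only the compared groups, limma 3.58.1 (diffSplice) and leaving out each library. The members, gene lists and tests were chosen with earlier results of these data known. Named genes were Pparg, its rows, a set of names from the lists, the 5 most similar genes and genes within 250 kb, some of which are not reported here; other list members enter by counts. Coding lengths and exons come from GENCODE M21, figures from matplotlib 3.10.9 and intervals from scipy 1.17.1.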

Additional observations from a re-analysis of the deposited data

How the results depend on the processing

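The Pparg log2 changes kept direction and call under every alternative run, within -1.12 to -0.90 for TGF-b1 against CD mock, 2.69 to 3.02 for SB431542 added to TGF-b1, 1.76 to 1.90 for TGF-b1 with SB431542 against CD mock, 0.15 to 0.26 for HFD mock against CD mock and 1.13 to 1.26 for HFD mock against TGF-b1. The exception was Itga5-High against Itga5-Low, never called, with -0.0101 under total counts and -0.00287 to 0.0487 when libraries were left out. The usage call of NM_011146 with SB431542 added was lost with limma (relative log2 change 4.61) and without TGF-b1 replicate 1 or 3 (3.95 to 5.38 over all libraries left out); the cause was not tested. For HFD mock against TGF-b1, never called, its usage ranged from -0.0130 to 2.45 over libraries left out. Merging the 3 PPARG1 rows, an alternative chosen after seeing the data, kept the NM_011146 usage call (edgeR adjusted p = 0.002183). For HFD mock against CD mock the merged rows gave NM_011146 a relative log2 change of -0.97, not called (edgeR adjusted p = 0.8745, and 0.9468 with the rows apart); the other alternatives follow NM_001308354 there.

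Total counts moved the median log2 change of all genes to -0.16 for TGF-b1 against CD mock, 0.30 for SB431542 added and 0.12 for both agents against CD mock, and the calls to 3068 higher and 6691 lower (4705 and 4812 with TMM), 8047 and 3446 (5835 and 5388) and 5962 and 2840 (4303 and 4284). For HFD mock against CD mock they became 2675 and 5268 (3821 and 3745), and for Itga5-High against Itga5-Low 3024 and 4230 (3635 and 3564).

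Samples of the same number did not deviate together (r of -0.0549 to 0.023 and -0.0507 to -0.00634). The spread within groups was very small for many genes, so this check could miss shared animals or cultures. Whether the numbers pair samples stays unknown. With the replicate block the usage change of NM_011146 with SB431542 added was 4.80, no Pparg call changed, and 9472 genes were called for TGF-b1 against CD mock, against 9517 without it. It changed no call of the other genes named.

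Genes that changed sign were mostly uncalled and near 0. With total counts these were Cebpb (-0.0614, then called lower), Nr2f2 (-0.0663), Parp14 (-0.0785) and Mkrn2 (-0.0394) for HFD mock against CD mock, Mkrn2 (-5.11e-04) for TGF-b1 against CD mock, Syn2 (0.0348) and D830050J10Rik (0.0145) for SB431542 added, Ppard (0.0514) for both agents against CD mock, and Fabp4 (-0.0373, then called) for Itga5-High. Gata2 with SB431542 added turned to -0.0134 with DESeq2's size factors, -0.00897 with its Wald test and -0.00749 with only those groups. Ccl2 in Itga5-High turned to 0.00257 with the replicate block and 2.05e-04 with the Wald test. With libraries left out in turn, values ranged over 0 for HFD mock against CD mock in Cebpb (-0.00946 to 0.0449), Gata3 (-0.128 to 0.0917), Mkrn2 (-0.0123 to 0.0841), Nr2f2 (-0.0116 to 0.0316), Parp14 (-0.0363 to 0.0544) and Rab3b (-0.276 to 0.376). The same held for D830050J10Rik (-0.142 to 0.236) with both agents against CD mock, Gata2 with SB431542 added (-0.0854 to 0.0750), and Ccl2 (-0.0280 to 0.0295), Etv1 (-0.443 to 0.525) and Fabp4 (-0.00178 to 0.00777) in Itga5-High against Itga5-Low. Other than in sign, 32 values of single genes lost their call and 15 gained one under an alternative.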
